A study of Mus musculus with 6 samples.

Results

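The genes described here encode the proteins of the mitochondrial ribosome, the mitoribosome, as far as their names mark them: every gene that the array's own annotation names Mrpl or Mrps followed by a digit. The array holds 76 such genes, 47 Mrpl genes named for the large subunit and 29 Mrps genes named for the small subunit, on 106 probes. All 76 passed the detection filter, among 22133 genes tested, and the probe with the highest mean signal stands for each gene. The RNA came from the G1E-ER-GATA-1 line of mouse erythroid progenitors, which lacks endogenous GATA-1 and expresses GATA-1 as a fusion with the oestrogen receptor, which ß-estradiol activates. In 3 samples the siRNA was directed against Mi2ß, the nucleosome-remodelling ATPase of the NuRD complex, encoded by Chd4, and in 3 control samples it was non-targeting. All 6 samples received siRNA at 0 h and 24 h and ß-estradiol at 24 h, and were collected at 48 h. Cells without ß-estradiol were not analysed here, and whether replicates were grown as separate cultures is not stated in the labels. The p-values therefore cover the spread among these 6 samples alone, and that spread could be technical.

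The mitoribosome translates the few proteins that mitochondrial DNA encodes, all of them subunits of the respiratory chain and the ATP synthase. Its RNAs come from mitochondrial DNA, while all of its proteins are encoded in the nucleus, made in the cytosol and imported. Compared with its bacterial relative it has lost RNA and gained proteins, so its protein subunits fall into those with a bacterial counterpart and those particular to mitochondria. Erythroid cells use mitochondria for haem synthesis and iron handling and clear them as they mature into red cells.

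Values are log2 signals minus the 75th percentile of the array, so that a value of 5 lies 5 doublings above that percentile. A change is the mean of the Mi2ß siRNA arrays minus the mean of the control siRNA arrays, with its standard error (SE) from limma, and "rose" and "fell" are used where the Benjamini-Hochberg adjusted p over all genes tested was under 0.05. Chd4, the siRNA target, had values of 4.62, 4.60 and 4.54 on the Mi2ß siRNA arrays, against 5.93, 6.00 and 5.75 on the control arrays. It fell by 1.31 (SE 0.10, limma adjusted p = 0.00161), with every Mi2ß siRNA array below every control array. Of the erythroid markers, 12 of 13 were measured, 2 rose and 2 fell. Over all genes tested 4.99% rose and 4.56% fell, shares that also stand beside the other marker list and the related lists below. Epb4.2, for the membrane protein band 4.2, and Alas2, the first enzyme of haem synthesis, changed by 1.75 and 1.06 (limma adjusted p = 0.00601 and 0.00467; Epb4.2 at 0.0583 on slide row 1 alone and Alas2 at 0.309 with arrays scaled to their median). Ahsp, the chaperone of alpha globin, and Slc4a1, the anion exchanger, changed by -1.11 and -1.04 (limma adjusted p = 0.00451 and 0.0121; Slc4a1 at 0.0519, 0.0532 and 0.0533 without Mi2ß siRNA replicate 1, control replicate 1 or control replicate 2). Gata1 and Klf1, erythroid transcription factor genes, changed by -0.41 and 0.27 (limma adjusted p = 0.115 and 0.259). Since the line lacks endogenous GATA-1, the Gata1 signal may come from the introduced fusion, and its source was not tested. Of 12 markers of other blood lineages, 8 were measured and 2 fell, the megakaryocyte genes Gp9 (-2.18) and Pf4 (-1.62). A further megakaryocyte gene of the list, Itga2b, changed by 1.51 with the groups apart (limma adjusted p = 0.0508, and past the threshold in 9 of 27 other settings), and the mast cell gene Cpa3 by 0.61 (limma adjusted p = 0.0594). Mcpt8, Fcer1a and Mpo were among those that did not pass the detection filter. Epb4.2, Itga2b and Cpa3 were dim. They averaged -1.91, -2.50 and -2.85 on the Mi2ß siRNA arrays, against -3.67, -4.02 and -3.46 on the control arrays. Alas2 averaged 6.80 and 5.74. The dim genes were well above background on all 3 arrays of each group, but lay nearer to it. The part of these markers in the values below was not tested.

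Promoter sequences are shown first because genes from both ends of the range of change, and genes that share a promoter region with a strongly changed neighbour, can be read side by side. RefSeq promoter entries (GRCm38.p6) matched 67 of the 76 genes by symbol, each 250 bases before to 50 bases after the start. Mrpl12 had the largest positive change of the 76 genes and Mrps21 the largest negative one. The 200 bases before each start are given on the gene's strand, with matches to the NRF1, GABP, YY1, E-box and ESRRA motifs in capitals; matches to the GC box and CCAAT, which are common, stay in lower case.
Mrpl12: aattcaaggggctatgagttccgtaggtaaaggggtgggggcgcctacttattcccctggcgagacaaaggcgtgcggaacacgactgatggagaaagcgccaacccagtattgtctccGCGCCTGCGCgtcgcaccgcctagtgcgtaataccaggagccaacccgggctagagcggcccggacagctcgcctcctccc
Mrps21: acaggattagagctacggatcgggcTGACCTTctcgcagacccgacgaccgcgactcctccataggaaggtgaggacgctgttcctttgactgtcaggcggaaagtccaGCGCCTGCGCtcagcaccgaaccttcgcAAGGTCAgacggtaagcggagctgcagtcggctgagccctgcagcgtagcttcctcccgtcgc
The stretch of Mrpl12 lies at chr11:120484437-120484636, plus strand, and that of Mrps21 at chr3:95871515-95871714, minus strand. Both hold the same 10 capital letters, GCGCCTGCGC, a match to the motif of NRF1, a transcription factor known for binding promoters of nuclear genes for mitochondria. The capitals TGACCTT and AAGGTCA before Mrps21 are matches, on either strand, to the half-site of ESRRA, an orphan nuclear receptor. Mrpl12 also has a match to this half-site, after its start and so outside the stretch shown. A match is a description of letters and not a bound site.

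Mrpl2 and Klc4 start 141 bases apart and head away from each other, and so do Mrpl37 and Cyb5rl, 128 bases apart. The bases between the starts are given on the strand of the Mrpl gene.
Mrpl2 to Klc4: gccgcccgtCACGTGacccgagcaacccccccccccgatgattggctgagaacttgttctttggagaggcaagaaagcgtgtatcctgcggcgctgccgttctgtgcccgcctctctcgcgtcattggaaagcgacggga
Mrpl37 to Cyb5rl: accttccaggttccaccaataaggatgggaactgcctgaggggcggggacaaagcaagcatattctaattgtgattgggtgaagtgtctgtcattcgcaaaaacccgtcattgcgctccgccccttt
These lie at chr17:46646081-46646220, plus strand, and chr4:107066867-107066993, minus strand (GRCm38.p6). The capitals CACGTG mark an E-box, the motif of MYC and related factors, between Mrpl2 and Klc4. Both stretches also hold GC box and CCAAT matches, in lower case. The changes of both pairs are given after the values of the single genes.

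None of the 76 genes rose and none fell, while 9.56% of all genes tested passed the threshold, 4.99% upward and 4.56% downward. All 76 were well above background on all 6 arrays and none was saturated, with mean signals of 786 to 60460 units per gene. Among the 5930 genes whose mean signal lay between the 5th and 95th percentiles of the 76 genes, 1637 and 37920 units, 11.6% passed. At an unadjusted p under 0.05, 9 of the 76 were higher (11.8%) and 7 lower (9.21%), against 10.5% and 13.4% of all genes tested. Both directions together made 21.1%, against 23.9% of all genes tested. Mrps2 had the lowest adjusted p, 0.0609. The count of 0 depended on the processing. It was 3 higher and 1 lower with normexp background correction, and 3 and 0 with quantile normalization. With an intensity trend it was 4 and 2, and with array weights 11 and 4. In these settings, in that order, 13.9%, 11.5%, 14.9% and 21.4% of all genes tested passed. Among the 76 the count stayed at 0 with slide row as a block and on slide row 1 alone, where 2 arrays of each group lie.

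The changes were small in size. They ran from -0.43 to 0.44, with a median of 0.02, against a median of -0.03 for all genes tested. With arrays scaled to their median the median was -0.21 for the 76 genes and -0.27 for all genes tested. The array medians were low, at 29.9, 40.5 and 21.4 units on Mi2ß siRNA replicates 1 to 3. On control replicates 1 to 3 they were 24.2, 19.9 and 24.4 units. The 75th percentiles of the 6 arrays lay at 359 to 444 units. The SD of the 76 changes was 0.198, against 0.545 for all genes tested. Among the 5930 genes in the same range of signal the SD was 0.383 and the median -0.10. No gene reached 1.5-fold, which 14.8% of all genes tested reached, and none reached 2-fold, which 5.52% reached. The 95% interval of the change lay within 1.5-fold in both directions for 62 of 76 genes (81.6%), against 43% of all genes tested. It lay within 2-fold for all 76, against 75.7% of all genes tested. For the median gene the interval reached 0.27 to either side of the change.

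**Figure D1:**
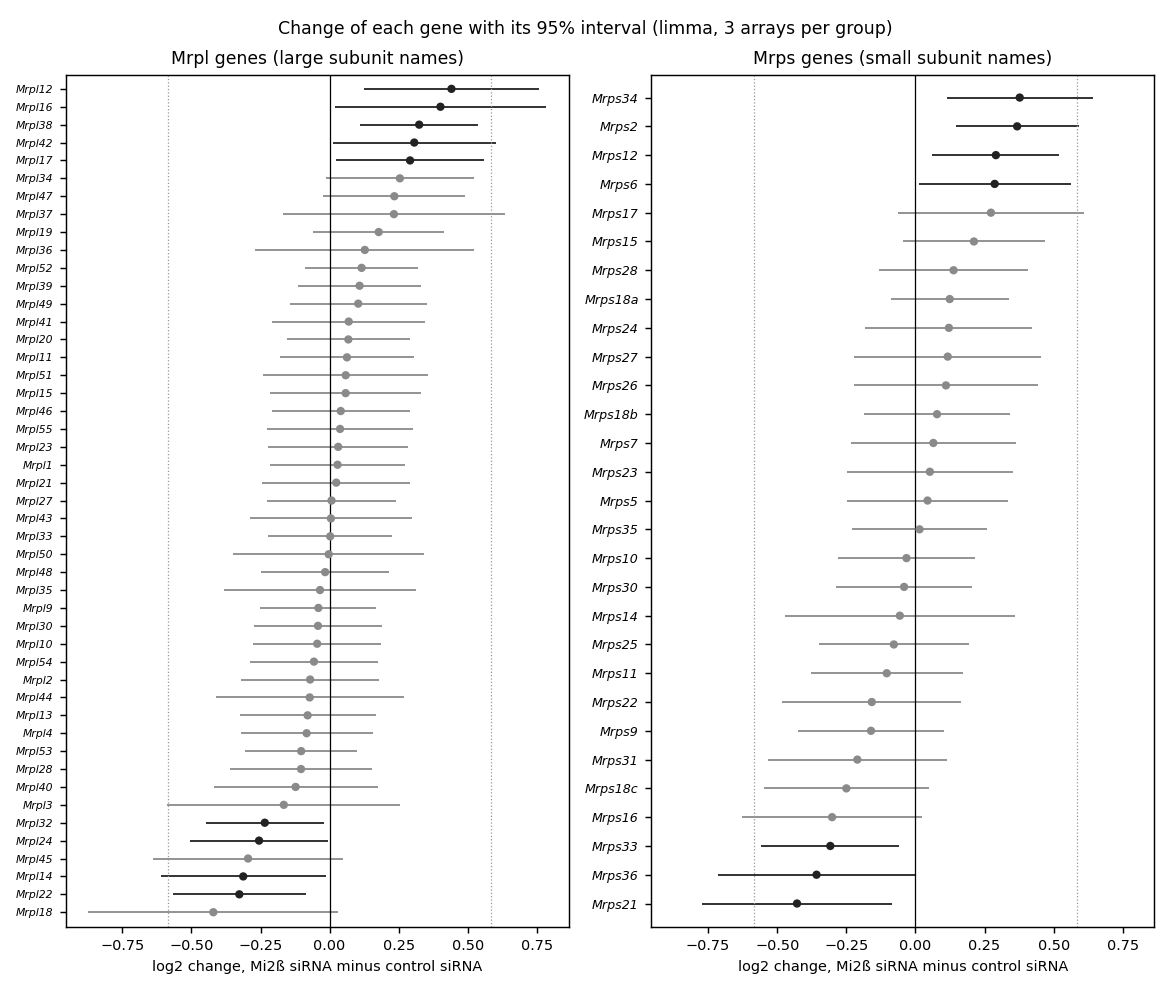
Log2 change of each of the 76 genes, Mi2ß siRNA minus control siRNA, with its 95% interval from limma (3 arrays per group). Dark points have an unadjusted p under 0.05, and dotted lines mark 1.5-fold. All points lie between -0.43 and 0.44, inside the dotted lines.

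Groups that did not overlap were about as frequent as elsewhere on the array, 24 of 76 genes (31.6%), against 31.1% of all genes tested. In 15 genes (19.7%) every Mi2ß siRNA array lay above every control array, against 12.7% of all genes tested. In 9 genes (11.8%) every Mi2ß siRNA array lay below, against 18.4% of all genes tested. These shares are descriptions of the list. Changes were above 0 in 42 of 76 genes (55.3%), against 45.5% of all genes tested and 2108 of the 5930 genes in the same range of signal. With arrays scaled to their median 12 of 76 were above 0, where the median of all genes tested was -0.27.

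Large-subunit proteins with a bacterial counterpart formed the largest group, 29 genes with a median change of 0.00. The split by bacterial counterpart follows lists made for this report, and other sources may assign single proteins otherwise. At an unadjusted p under 0.05, 3 of the 29 were higher and 4 lower. Over all genes tested 10.5% were higher and 13.4% lower at this threshold, shares that stand beside the counts in the groups and lists below. Mrpl12, the mitochondrial form of the L7/L12 stalk protein that in bacteria recruits translation factors, had values of 6.20, 6.09 and 5.89 on the Mi2ß siRNA arrays, against 5.58, 5.78 and 5.50 on the control arrays. The groups did not overlap, the change was 0.44 (SE 0.13) with an interval of 1.09- to 1.69-fold, and the limma adjusted p was 0.0965. Its probe lies at chr11:120349740-120349799 (mm9).

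Mrpl16, whose bacterial counterpart lies near the peptidyl transferase centre, had values of 4.57, 4.37 and 4.35 on the Mi2ß siRNA arrays, against 4.10, 4.24 and 3.75 on the control arrays. Control replicate 3 was the lowest of the 6, and the change was 0.40 (SE 0.16, limma adjusted p = 0.188). Mrpl17 changed by 0.29 with the groups apart (limma adjusted p = 0.179).

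At the low end of this group stood Mrpl18, counterpart of a bacterial protein that binds 5S rRNA. Its values were 4.93, 4.69 and 4.84 on the Mi2ß siRNA arrays, against 5.36, 5.49 and 4.87 on the control arrays. Control replicate 3 lay among the Mi2ß siRNA arrays, so the groups overlapped, and the change was -0.42 (SE 0.18, limma adjusted p = 0.239). Mrpl22, counterpart of a bacterial protein that lines the peptide exit tunnel, had values of 5.40, 5.40 and 5.46 on the Mi2ß siRNA arrays, against 5.73, 5.87 and 5.65 on the control arrays. Here the Mi2ß siRNA arrays lay below all control arrays, with a change of -0.33 (SE 0.10, limma adjusted p = 0.106). Mrpl14, Mrpl24 and Mrpl32 also had lower, non-overlapping values, with changes of -0.31, -0.26 and -0.23 and limma adjusted p of 0.191, 0.198 and 0.173. Mrpl32 is known as a substrate of the mitochondrial m-AAA protease, which processes it before ribosome assembly.

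The genes with the highest and lowest mean signal were both in this group, and signals of different probes are not levels that can be compared. Mrpl33, the brightest, had values of 7.26, 7.26 and 7.28 on the Mi2ß siRNA arrays, against 7.17, 7.36 and 7.26 on the control arrays, a change of 0.00 (SE 0.09) with an interval of 0.857- to 1.17-fold. Mrpl35, the dimmest, had values of 1.11, 0.90 and 0.94 on the Mi2ß siRNA arrays, against 1.08, 1.20 and 0.77 on the control arrays, a change of -0.03 (SE 0.14) with an interval of 0.767- to 1.24-fold. In both genes the Mi2ß siRNA values lay inside the range of the control values.

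Large-subunit proteins particular to mitochondria numbered 20 and had a median change of 0.04, with 2 higher and none lower at an unadjusted p under 0.05. Mrpl38 had values of 3.14, 3.04 and 3.05 on the Mi2ß siRNA arrays, against 2.80, 2.70 and 2.76 on the control arrays. The groups did not overlap and the change was 0.32 (SE 0.09, limma adjusted p = 0.0784). Mrpl42 changed by 0.31 (limma adjusted p = 0.193). At the other end Mrpl45, known for placing the ribosome at the inner membrane, changed by -0.30 with overlapping groups (limma adjusted p = 0.275).

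This group holds 2 genes whose names point to the small subunit but whose proteins were later placed in the large one. Mrps30 had values of 5.47, 5.35 and 5.53 on the Mi2ß siRNA arrays, against 5.52, 5.56 and 5.39 on the control arrays, and its change was -0.04 (SE 0.10, limma adjusted p = 0.852). Mrps18a had values of 4.63, 4.53 and 4.60 on the Mi2ß siRNA arrays, against 4.47, 4.41 and 4.51 on the control arrays. Its groups lay just apart, with a change of 0.12 (SE 0.09, limma adjusted p = 0.464). Its relatives Mrps18b and Mrps18c, which are small-subunit proteins, changed by 0.08 and -0.25 (limma adjusted p = 0.715 and 0.286).

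Small-subunit proteins with a bacterial counterpart, 16 genes, had a median change of 0.05, with 3 higher and 1 lower at an unadjusted p under 0.05. Mrps2 had values of 3.56, 3.40 and 3.42 on the Mi2ß siRNA arrays, against 3.08, 3.11 and 3.08 on the control arrays. The 3 control values lay close together and the change was 0.37 (SE 0.09, limma adjusted p = 0.0609), an interval of 1.11- to 1.51-fold. It passed the threshold in 8 of 27 other settings, more than any other of the 76 genes, and Mrpl12 passed in 7.

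Mrps12, the counterpart of the bacterial decoding-centre protein in which streptomycin resistance arises, had values of 5.24, 5.20 and 5.27 on the Mi2ß siRNA arrays, against 4.88, 4.90 and 5.06 on the control arrays. The groups were apart and the change was 0.29 (SE 0.09, limma adjusted p = 0.124). Mrps6 had a change of the same size, 0.29 (SE 0.11, limma adjusted p = 0.192).

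Mrps21 had values of 5.21, 5.21 and 5.30 on the Mi2ß siRNA arrays, against 5.73, 5.87 and 5.41 on the control arrays. Control replicate 3 was nearest to the Mi2ß siRNA arrays. The change was -0.43 (SE 0.14), an interval of 0.586- to 0.942-fold, with a limma adjusted p of 0.128. Without control replicate 3 it was -0.56 and passed the threshold (limma adjusted p = 0.0479). Mrps16 changed by -0.30 with overlapping groups (limma adjusted p = 0.241).

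Small-subunit proteins listed here as particular to mitochondria, 10 genes, had a median change of 0.03, with 1 higher and 1 lower at an unadjusted p under 0.05. Mrps34 had values of 5.37, 5.42 and 5.30 on the Mi2ß siRNA arrays, against 4.82, 5.06 and 5.07 on the control arrays, a change of 0.38 (SE 0.11, limma adjusted p = 0.0906). Mrps33 had values of 5.25, 5.21 and 5.37 on the Mi2ß siRNA arrays, against 5.48, 5.69 and 5.59 on the control arrays, a change of -0.31 (SE 0.10, limma adjusted p = 0.131). Both genes had groups that did not overlap, in opposite directions. The other 8 genes of the group changed by -0.21 (Mrps31) to 0.14 (Mrps28).

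Mrps36 is kept apart, since its protein was later assigned to the 2-oxoglutarate dehydrogenase complex. Its values were 5.54, 5.19 and 5.58 on the Mi2ß siRNA arrays, against 5.72, 5.96 and 5.71 on the control arrays. The groups did not overlap and Mi2ß siRNA replicate 2 was the lowest of the 6. The change was -0.36 (SE 0.15, limma adjusted p = 0.209).

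**Figure D2:**
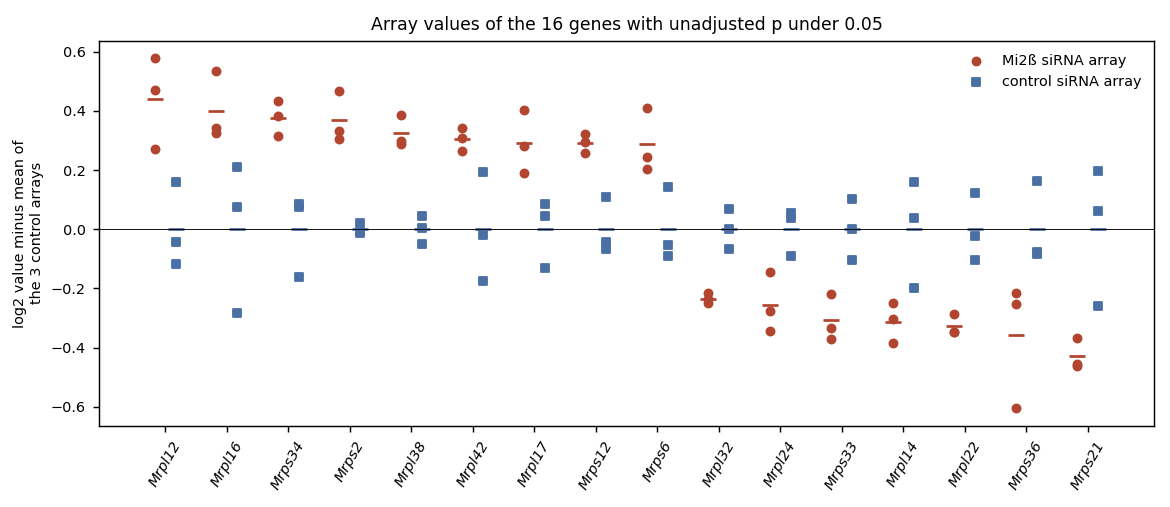
Values of the 16 genes with an unadjusted p under 0.05 on each array, as log2 differences from the mean of the 3 control arrays; circles are Mi2ß siRNA arrays, squares control siRNA arrays, and bars group means. The circles lie above the squares in 9 genes and below them in 7, and none of the 16 passed the adjusted threshold.

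By subunit name, the 47 Mrpl genes had a median change of 0.01 and the 29 Mrps genes one of 0.04. The arrays of a group differed from each other by more than these medians. The median deviation of the 76 genes from their own means over the 6 arrays was 0.04, -0.06 and 0.02 on Mi2ß siRNA replicates 1 to 3, against -0.06, 0.11 and -0.07 on control replicates 1 to 3. On control replicate 2, 62 of the 76 genes lay above their own mean, and on control replicate 3 only 11 did. On Mi2ß siRNA replicates 1 to 3 the counts were 50, 24 and 45. The arrays also differed in the share of probes well above background, 61.3%, 74% and 48.5% on Mi2ß siRNA replicates 1 to 3, against 56.5%, 53.1% and 54.5% on control replicates 1 to 3; the part of this in the changes was not tested.

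**Figure D3:**
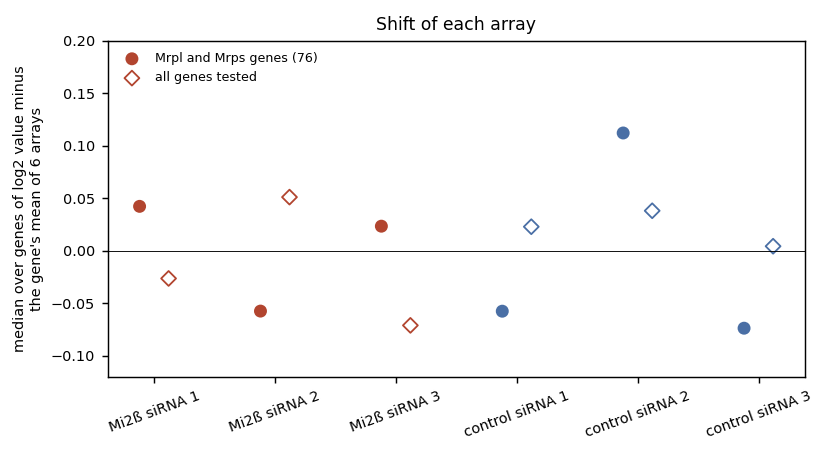
Median over genes of the log2 value minus the gene's own mean of 6 arrays, for the 76 genes (filled circles) and all genes tested (open diamonds), with Mi2ß siRNA arrays in red and control siRNA arrays in blue. The circles run from -0.06 to 0.04 on the Mi2ß siRNA arrays and from -0.07 to 0.11 on the control arrays.

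The spread within groups was narrower on the Mi2ß siRNA arrays. The median SD of the 76 genes was 0.0718 there, against 0.129 on the control arrays, and 19 of 76 genes had the higher SD on the Mi2ß siRNA arrays. Over all genes tested the median SD was 0.153 on the Mi2ß siRNA arrays and 0.174 on the control arrays.

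Of the 76 genes, 26 had more than 1 probe past the detection filter. In 24 of the 26 all probes changed with the same sign, and none of their probes passed the threshold. The probes differed most for Mrpl47, whose 4 probes changed by 0.13 to 0.42, the highest of these on its dimmest probe. The second probe of Mrpl30 is placed on chromosome 11 by the file, while the first lies on chromosome 1; both changed by -0.04.

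The list of mitoribosome proteins under other names held 7 genes, among them Mrpl57 and Mrpl58, which the array's annotation calls Mrp63 and Ict1. Of the 7, 1 rose and none fell. Gadd45gip1, which encodes a large-subunit protein also known as CRIF1, had values of 5.02, 4.99 and 5.06 on the Mi2ß siRNA arrays, against 4.45, 4.59 and 4.52 on the control arrays. It rose by 0.50 (SE 0.09, limma adjusted p = 0.0217). It lost the call in 11 of 27 other settings, 5 of which left out 1 array (Mi2ß siRNA replicate 1, 2 or 3, or control replicate 1 or 3; limma adjusted p = 0.0569 to 0.11). Dap3, the GTP-binding small-subunit protein, changed by -0.34 (limma adjusted p = 0.176) and Ptcd3, another small-subunit protein, by 0.22 (limma adjusted p = 0.347).

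None of 28 genes listed here as assembly factors rose or fell, with 3 higher and 3 lower at an unadjusted p under 0.05. That list was made for this report, and other sources may assign single genes otherwise, Nop9 and Yme1l1 among them. Fastkd2, an RNA-binding protein needed for large-subunit assembly, changed by 0.56 (SE 0.18, limma adjusted p = 0.129), and Eral1, a chaperone of the small-subunit RNA, by -0.55 (SE 0.14, limma adjusted p = 0.0631). Fastkd2 was dim, averaging -3.70 on the Mi2ß siRNA arrays and -4.26 on the control arrays. None of 19 mitochondrial translation factors rose or fell, with 1 higher and 2 lower at an unadjusted p under 0.05. 2810006K23Rik, listed as the mouse counterpart of the human release factor C12orf65, changed by -0.65 (SE 0.16, limma adjusted p = 0.0554), and Gfm2, which acts in ribosome recycling, by -0.37 (limma adjusted p = 0.112).

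Of 20 mitochondrial aminoacyl-tRNA synthetases and amidotransferase subunits, 1 fell and none rose, with 5 higher and 1 lower at an unadjusted p under 0.05. Qrsl1, a subunit of the amidotransferase that makes glutaminyl-tRNA in mitochondria, had values of -0.99, -1.16 and -1.13 on the Mi2ß siRNA arrays, against -0.46, -0.53 and -0.61 on the control arrays. It fell by 0.56 (SE 0.10, limma adjusted p = 0.0213), and lost the call without any of the Mi2ß siRNA replicates or without control replicate 1 or 2 (limma adjusted p = 0.0683 to 0.0858). Over the 27 other settings Qrsl1 lost the call in 9, with a limma adjusted p of up to 0.346. Gatc, a further subunit of that enzyme, changed by 0.37 (SE 0.10, limma adjusted p = 0.0849).

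Of 20 genes for upkeep and transcription of mitochondrial DNA and RNA, 2 rose and none fell, with 4 higher and 5 lower at an unadjusted p under 0.05. Supv3l1, the helicase of the mitochondrial RNA degradosome, averaged 2.29 ± 0.08 on the Mi2ß siRNA arrays and 1.57 ± 0.06 on the control arrays (SD, n = 3 each), and rose by 0.73 (SE 0.09, limma adjusted p = 0.00786). Its adjusted p was 0.0545 without Mi2ß siRNA replicate 1, 0.0755 on slide row 1 alone and 0.654 with arrays scaled to their median. Tefm, the mitochondrial transcription elongation factor, rose by 0.53 (SE 0.11, limma adjusted p = 0.0329), with adjusted p of 0.0536 to 0.146 when any 1 array was left out. Over the 27 other settings Tefm lost the call in 10, with a limma adjusted p of up to 0.755. Top1mt, the mitochondrial topoisomerase, and Twnk, the mitochondrial DNA helicase, changed by 0.57 and 0.44 (limma adjusted p = 0.0603 and 0.135). Among the lower genes were Polrmt, the mitochondrial RNA polymerase, at -0.42, and Hsd17b10, a subunit of mitochondrial RNase P, at -0.38 (limma adjusted p = 0.0803 and 0.0802).

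Of 11 measured regulators of mitochondrial gene expression, 2 rose and none fell, with 3 higher and 5 lower at an unadjusted p under 0.05. Their median change was -0.20, and 9.56% of all genes tested passed the adjusted threshold. Esrra had values of 3.95, 3.68 and 3.76 on the Mi2ß siRNA arrays, against 2.59, 2.73 and 2.28 on the control arrays, and rose by 1.26 (SE 0.15, limma adjusted p = 0.00601); the adjusted p was 0.116 with arrays scaled to their median and 0.0501 on slide row 1 alone. Ppargc1b, a coactivator that works with ESRRA, had values of -1.39, -1.67 and -2.08 on the Mi2ß siRNA arrays, against -2.92, -2.62 and -3.40 on the control arrays. It rose by 1.27 (SE 0.26, limma adjusted p = 0.0366), with adjusted p of 0.0576 to 0.129 without Mi2ß siRNA replicate 1 or 2 or any 1 of the control replicates. Myc changed by 0.51 (limma adjusted p = 0.0777). Gabpa and Gabpb1, the parts of the ETS factor GABP, and Yy1 each changed by -0.42 (limma adjusted p = 0.0993, 0.174 and 0.0709), and Nrf1 by -0.20 (limma adjusted p = 0.409). Ppargc1a did not pass the detection filter.

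**Figure D4:**
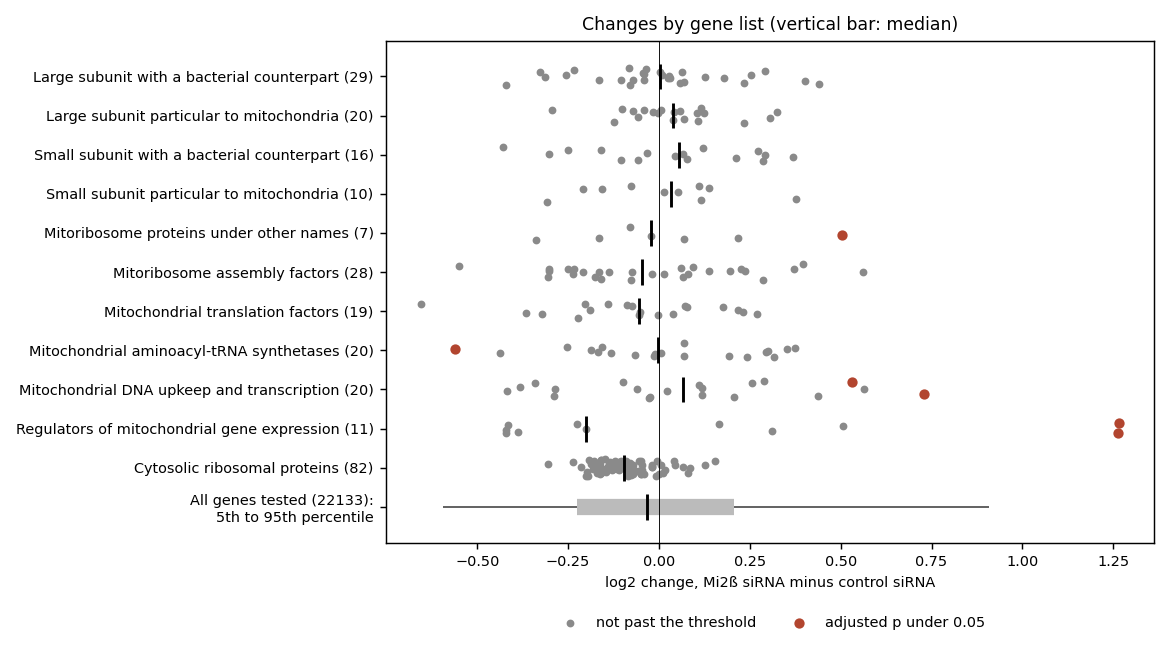
Log2 changes, Mi2ß siRNA minus control siRNA, for the 75 mitoribosome genes in 4 structural groups, 6 lists of related genes, the cytosolic ribosomal proteins and all genes tested (5th to 95th percentile as a line, quartiles as a box). Vertical bars are medians and red points passed an adjusted p of 0.05; red points stand in 4 of the 6 related lists and in none of the 4 mitoribosome groups.

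Cytosolic ribosomal protein genes, the counterparts outside mitochondria, numbered 82 by name. None rose or fell and none had an unadjusted p under 0.05. Their median change was -0.10 with an SD of 0.08, narrower than the SD of 0.198 among the mitochondrial genes. The difference between the 2 sets was not tested.

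In the 67 promoters, motifs were counted on both strands within the 300-base windows and compared with the windows of 11290 tested genes. The NRF1 motif, in which A and any base lie between GCGC on either side, was present in 12 (17.9%), against 9.31% of the tested genes. The GABP core CCGGAAG was present in 23 (34.3%), against 16.8% of the tested genes. The YY1 motif AAGATGGC was present in 12 (17.9%), against 4.39% of the tested genes. The E-box was present in 7.46%, against 9.4% of the tested genes, and the ESRRA half-site AAGGTCA in 5.97%, against 3.48%. AGATAA, the motif of GATA factors, was present in 16.4%, against 7.91% of the tested genes. The GC box GGGCGG was present in 49.3%, against 56.9%, and CCAAT in 40.3%, against 39.3%. Matches of different motifs could overlap and were counted separately; the ESRRA and NRF1 matches shown for Mrps21 do not overlap. Over all 27025 promoters in the table, NRF1, GABP and YY1 motifs were present in 4.78%, 9.12% and 2.88%. Genes with the NRF1 motif had a median change of -0.06 and those without it 0.03; with and without the YY1 motif the medians were 0.12 and 0.00, and with and without the GABP core 0.01 and 0.01. With and without the ESRRA half-site, present in 4 genes, the medians were 0.17 and 0.00, and with and without the GATA motif, present in 11 genes, -0.08 and 0.03. With and without the E-box they were 0.07 and 0.01, with and without the GC box 0.03 and 0.00, and with and without CCAAT 0.00 and 0.03. These are descriptions with no test.

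A neighbouring gene started head to head within 1000 bases of 25 of the 67 genes (37.3%), against 18.1% of the 11290 tested genes. Changes were measured for 24 of these neighbours, and 4 of the 24 passed the threshold, against 9.56% of all genes tested. Klc4, a kinesin light chain gene, fell by 1.29 (SE 0.19, limma adjusted p = 0.0121), beside Mrpl2 with values of 5.91, 5.90 and 5.91 on the Mi2ß siRNA arrays, against 5.94, 6.13 and 5.87 on the control arrays. Mrpl2 changed by -0.07 (SE 0.10) and its groups overlapped. Ncapd2, a condensin subunit gene, fell by 0.60 (SE 0.12, limma adjusted p = 0.0333), beside Mrpl51 at 0.06 (SE 0.12). Mitd1 fell by 0.38 (SE 0.09, limma adjusted p = 0.0494), beside Mrpl30 at -0.04 (SE 0.09).

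Cyb5rl was the neighbour that rose, by 0.73 (SE 0.16, limma adjusted p = 0.0433), beside Mrpl37 at 0.23 (SE 0.16). Mrpl37 had values of 2.42, 2.06 and 2.51 on the Mi2ß siRNA arrays, against 2.18, 2.22 and 1.89 on the control arrays, which overlap. Klc4 lost the call without Mi2ß siRNA replicate 1 or control replicate 1 or 2 (limma adjusted p = 0.0525 to 0.0563), and Ncapd2, Mitd1 and Cyb5rl lost it whichever array was left out (0.0539 to 0.167). Over the 27 other settings Klc4, Ncapd2, Mitd1 and Cyb5rl lost the call in 4, 12, 21 and 10. The difference between a gene and its neighbour was not tested. Of the 24 neighbours, 10 changed with the same sign as the mitoribosome gene, and Pearson's r across them was 0.10. The pair of Mrpl46 and Mrps11 enters both figures from either side. They are descriptions over genes that share the 6 arrays.

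Mrpl46 and Mrps11 are each other's neighbour, with starts 42 bases apart at chr7:78783090-78783130 (GRCm38.p6, minus strand), and bear on both subunits from a single stretch.
Mrpl46 to Mrps11: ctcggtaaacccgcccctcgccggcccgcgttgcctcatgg
Mrpl46 changed by 0.04 (SE 0.10) and Mrps11 by -0.10 (SE 0.11), and in both the groups overlapped. Mrpl43 starts 116 bases from Twnk, and Mrps12 starts 147 bases from Sars2, the mitochondrial seryl-tRNA synthetase gene. Mrpl43 changed by 0.00 and Twnk by 0.44 (limma adjusted p = 0.135); Mrps12 changed by 0.29 and Sars2 by -0.13 (limma adjusted p = 0.564).

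**Figure D5:**
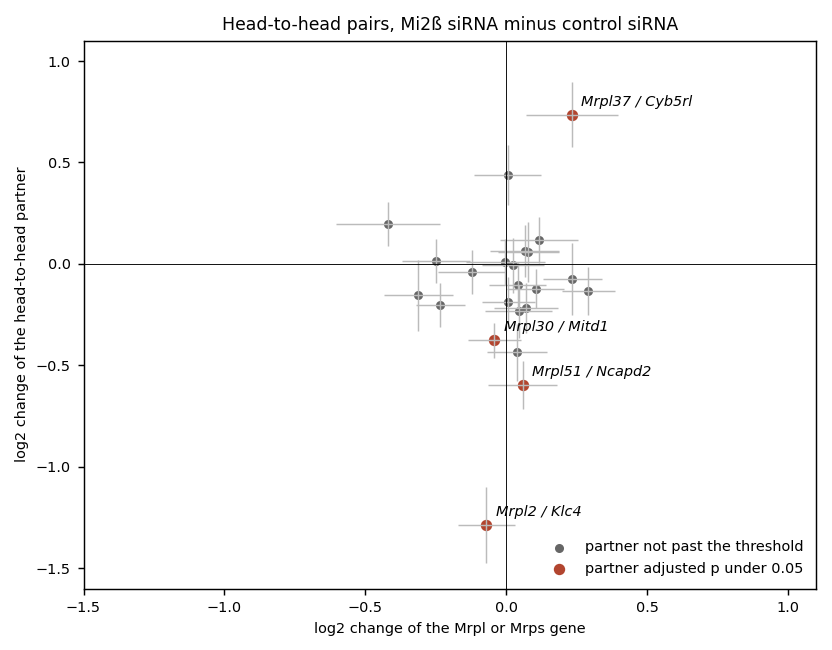
Log2 change of each mitoribosome gene (x axis) against that of the gene starting head to head within 1000 bases (y axis), Mi2ß siRNA minus control siRNA, for 23 pairs; the pair of Mrpl46 and Mrps11 is drawn once, with Mrps11 on the y axis, and bars are SEs. The 4 red neighbours lie between -1.29 and 0.73 on the y axis, beside mitoribosome genes between -0.07 and 0.23 on the x axis.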

How the data were processed

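Cy3-labelled cRNA from 0.1 µg of total RNA per sample was hybridised to 1-colour Agilent arrays, 6 arrays on 1 slide. Per the file headers, the deposited intensities come from version 10.7.3.1 of Agilent's Feature Extraction. The submitters' processing notes also name limma; its settings were not found in the labels. The authors' value table holds the same intensities (100% within 0.005, or its printed precision) and is on the linear scale.

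Control spots and outlier spots were left out, spots of a probe were averaged, and each array's 75th percentile over non-control spots was subtracted from the log2 processed signals. That base was kept to match earlier processing of these files, after 9 bases had been tried and their counts seen. Probes well above background on 3 of 6 arrays were kept. Names were updated through RefSeq accessions (27509 of 29150 matched). Probe coordinates are mm9. The fit of the 2 groups used lmFit and eBayes of limma 3.58.1 (R 4.3.3), two-sided and without covariates, and p-values were adjusted over 22133 genes by Benjamini-Hochberg; the fit was tested on simulated data. The number of arrays limits the precision.

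The genes and lists were chosen with earlier results of these data known. Named genes are Chd4, the 3 largest changes each way, the brightest and dimmest gene, Mrpl12, Mrps12, Mrps30, Mrps18a, Mrps36 and, per related list, up to 8 changed genes and 2 more by size; all others, promoter neighbours included, were chosen after their values were seen. The alternatives were other background corrections, scalings, filters, probe rules, variance models, blocks and left-out arrays. A marker gene that the lists hold is not reported here.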

Additional observations from a re-analysis of the deposited data

How the results depend on the processing

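Under 27 other settings, 9 of them added after seeing the data (other scalings), the count of mitoribosome genes that rose was 0 in the setting used and 3 with normexp, 3 with quantile normalization, 1 (Mrps2) when detection on all 6 arrays was required, 4 with an intensity trend, 11 with array weights, and 3 with each percentile taken over the genes tested, over probes past the detection filter or over probes detected on all 6 arrays. The count that fell was 0, against 1 with normexp, 2 with the trend, 4 with array weights, and 0 to 1 when 1 array was left out (1 without control replicate 3). Array weights gave Mi2ß siRNA replicate 1 a weight of 7.38 and the other arrays 0.511 to 1.33. The count over all genes, 2115, was 831 with array median scaling, 993 without a detection filter and 720 on slide row 1 alone. It was 3080 with normexp, 2540 with quantile normalization, 3306 with the trend and 4729 with array weights. With detection on all 6 arrays required it was 2743 of 18689 genes, and with the 3 percentiles above 2235, 2266 and 2244. With 1 array left out it ran from 813 to 1579. With the replicate number as a block it was 685, and 0 mitoribosome genes passed. The labels name no pairs, and the numbers were not taken as pairs in the setting used. Same-numbered arrays correlated at 0.21, -0.32 and 0.13 in their deviations from the group means. With 3 arrays per group these values cannot tell pairs from no pairs. Same-numbered arrays also lie side by side on the slide, and the labels do not say whether they share a culture or day. With slide row as a block 0 mitoribosome genes passed, and on row 1 alone 0 passed; row 2 has 1 array per group and gives no test.

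The median change of the 76 genes, 0.02, was -0.21 with array median scaling, which moved the median of all genes to -0.27, and 0.10 and 0.11 with the percentile over the genes tested and over probes past the detection filter; with 1 array left out it ran from -0.0147 (without control replicate 3) to 0.0837 (without control replicate 2), so its sign turned. For Mrpl genes it was -0.23 with array median scaling, 0.0923, 0.0993 and 0.0853 with the percentile over genes tested, filtered probes and probes detected on all arrays, and -0.0171 to 0.0859 with 1 array left out; for Mrps genes it was -0.19 with array median scaling, 0.1293, 0.1363 and 0.1223 with those percentiles and -0.0202 to 0.0814 with 1 array left out. With each of these scalings the median of the 76 genes lay 0.0532 above that of all genes tested, as in the setting used. A scaling moves all genes of an array by the same amount. With 1 array left out that difference ran from 0.0102 (without Mi2ß siRNA replicate 3) to 0.1161 (without control replicate 2). The cause of the shifts with left-out arrays was not tested. Of the 76 genes, 45 changed sign in at least 1 setting, none of them past the threshold there. Among the named genes 6 did. Mrpl33 was -0.23 with array median scaling, -0.0041 on row 1, -0.044 to 0.0488 with 1 array left out and -0.0511 when scaled to the mitoribosome genes. Mrpl35 was 0.0109 with quantile normalization, 0.0389 with array weights, -0.1576 to 0.0564 with 1 array left out, and 0.0506, 0.0576 and 0.0436 with the percentile over genes tested, filtered probes and probes detected on all arrays. Mrps30 was 0.0027 with normexp, 0.0346 with quantile normalization, -0.0898 to 0.0096 with 1 array left out, and 0.0444, 0.0514 and 0.0374 with those 3 percentiles. Mrps18a was -0.11 and Ptcd3 -0.0166 with array median scaling, and Nars2 was 0.0214 with array weights, 0.61 on row 1 and -1.0015 to 0.4281 with 1 array left out. Of the other values of named genes, 1135 kept their sign and side of the threshold, 97 lost the call and 94 gained one.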

Other observations

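Nars2, the mitochondrial asparaginyl-tRNA synthetase gene, had values of -3.61, -3.80 and -4.26 on the Mi2ß siRNA arrays, against -4.05, -4.58 and -1.72 on the control arrays, and was well above background on 2 of 3 arrays in each group. Control replicate 3 stood apart from the other 5 arrays, and the change was -0.44 (SE 0.74, limma adjusted p = 0.776).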
